A study of Mus musculus with 15 samples.

Results

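Translation factors are the proteins that load messenger RNA and initiator tRNA onto the ribosome (eukaryotic initiation factors, Eif genes) and that carry the ribosome along the message (eukaryotic elongation factors, Eef genes). The transcripts described here are all those whose gene name in the GENCODE M21 annotation starts with Eif followed by a digit from 1 to 6 or with Eef followed by 1 or 2, with genes of the X and Y chromosomes left out. The rule found 66 transcripts of 48 genes among 10370 listed transcripts, after 3 transcripts of the sex chromosomes had been set aside. Of the 66, 60 were annotated as protein-coding, 3 as processed transcripts without a coding sequence, 2 as retained introns and 1 as a substrate of nonsense-mediated decay. In 38 genes a single transcript was listed, and the other 10 genes held 28 transcripts.

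The RNA came from dissected cortex of male C57BL/6 mice (C57Bl/6J in the study's methods) given as 12 weeks old, collected 1 month after a high-frequency head impact (HF-HI) procedure or a Sham procedure. HF-HI mice received repeated head impacts on consecutive days under anesthesia, and Sham mice were anesthetized and handled in the same way without impact. No allele and no agent beside the anesthesia is named for either group. There were 7 Sham and 8 HF-HI libraries of ribosome-depleted, strand-marked total RNA.

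In initiation, eIF2 brings the initiator tRNA to the small ribosomal subunit, eIF3 holds the complex together, eIF4F binds the cap of the message and unwinds its leader, and eIF1, eIF1A and eIF5 govern which start codon is accepted. Elongation then relies on eEF1A, which delivers each aminoacyl-tRNA, and on eEF2, which moves the ribosome forward by a codon. In neurons both steps are regulated by phosphorylation, of eIF2 alpha by stress kinases and of eEF2 by the calcium-dependent eEF2 kinase, and these controls act on the proteins, which were not measured here.

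The listed transcripts held 5798810 to 10582858 recovered reads per Sham library and 3496103 to 8666307 per HF-HI library, and translation factors took between 0.805% and 0.865% of them. Size factors, the scaling that makes libraries comparable, were 0.818 to 1.47 for Sham and 0.501 to 1.22 for HF-HI. HF-HI libraries thus tended to be shallower, with partial overlap between the groups, and depth cannot be fully told apart from group. HF-HI replicate 2 received the lowest library weight, 0.489, in a weighted fit. Neuronal, astrocytic and oligodendrocytic markers were abundant in every library, and of the 8 genes on each list 8 were listed. Of the microglial markers Aif1 and Tmem119 were not listed, and of the choroid plexus markers only Ttr and Enpp2 were. No marker list had more than 1 transcript at an unadjusted p under 0.05 apart from striatum, with 3 lower of 14 and summed normalized counts of 7013 to 10672 for Sham and 4993 to 10106 for HF-HI. The part of such differences in tissue in the results was not tested, and in bulk tissue fewer cells of a type cannot be told apart from less RNA per cell.

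The values are normalized counts (reads divided by the size factor of the library), recovered from the deposited variance-stabilized values (VSD, a log2-like scale that compresses low counts). Tests were run on the VSD with limma, HF-HI minus Sham, and adjusted over all 10370 transcripts. A transcript is termed called below at an unadjusted p under 0.05. No transcript passed an adjusted p under 0.1 among the 66 or among all 10370 (0.0%), and none of the 66 passed it with voom on the recovered reads.

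Translation factors were called at a share close to that of all listed transcripts, and the set as a whole was not tested. Of the 66 transcripts, 6 were called (9.09%), against 8.83% of all transcripts. Higher in HF-HI were 2 of them, a processed transcript of Eif1 and a processed transcript of Eif4g2, against a background of 4.94% in this direction. That of Eif1 was already known to differ from earlier results of these data. Lower were 4 protein-coding transcripts, of Eif5, Eef1e1, Eif4a3 and Eif3l, against a background of 3.9%. The median log2 ratio of mean normalized counts was −0.005 over the 66 and −0.002 over all transcripts, with 32 of the 66 above and 34 below 0. When the reads of each gene were summed, 38 of the 48 genes had a log2 difference smaller than 0.1 in either direction.

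**Figure D1:**
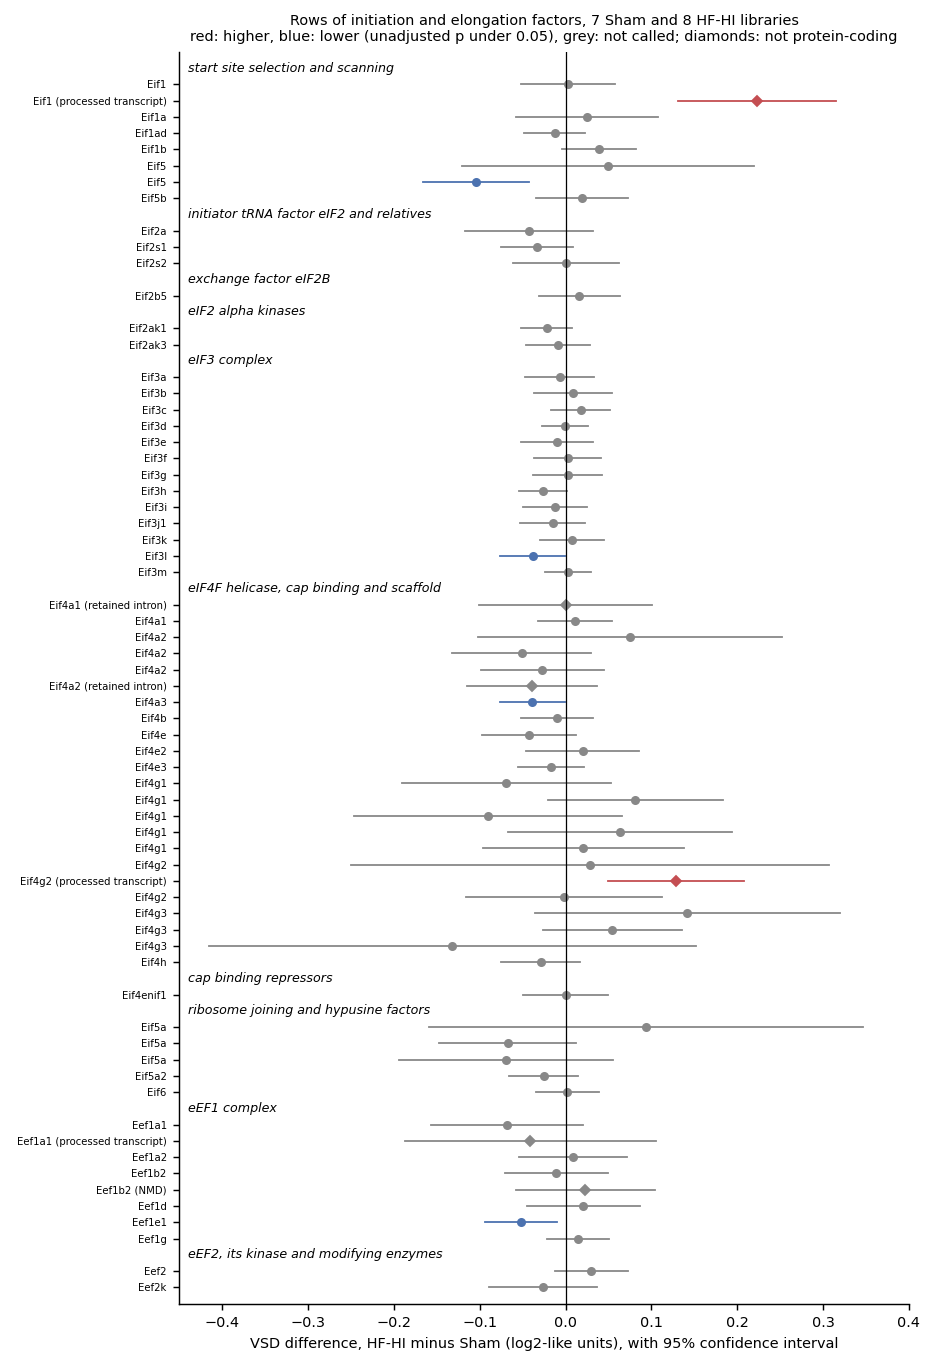
VSD difference (HF-HI minus Sham, horizontal axis, log2-like units) of each of the 66 transcripts, grouped by role, with its 95% confidence interval from limma. The 2 called transcripts to the right are both diamonds, which mark transcripts that are not protein-coding, and the 4 called to the left are all coding.

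The clearest difference was in Eif1, whose protein sits on the small subunit and discriminates against wrong start codons. Both of its listed transcripts lie on chromosome 11 in the plus strand of GRCm38 (mm10). The coding transcript, ENSMUST00000049385, has 4 exons and spans chr11:100319885-100322096. The processed transcript, ENSMUST00000132618, has 2 exons, 383 bases in all, and spans chr11:100320884-100321533. It starts inside an intron of the coding transcript, so that its first 64 bases are intronic and its other bases lie within coding-transcript exons. Those 64 bases are the only ones that tell the transcripts apart from the side of the processed transcript, and they are therefore shown here in capitals, with the start of the shared exon in lower case, as read from the genome at chr11:100320884-100320977.

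Eif1 processed transcript: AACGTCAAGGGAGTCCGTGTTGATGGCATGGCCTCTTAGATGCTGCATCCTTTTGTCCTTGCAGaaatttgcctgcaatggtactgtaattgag

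In Sham the Eif1 processed transcript had a lowest value of 113.7, a median of 220.1 and a highest of 327.2 normalized counts, from 93 to 482 reads per library over both groups. In HF-HI the lowest was 342.4, the median 403.5 and the highest 467.3. All 8 HF-HI libraries lay above all 7 Sham libraries, and Eif1 was the only translation factor whose groups did not overlap, against 0.154% of all transcripts (16 of 10370). The means were 237 ± 73.1 (SD, n = 7) and 404 ± 46.8 (n = 8), a log2 ratio of 0.77. The VSD difference was 0.22 (SE 0.0434, limma adjusted p = 0.206, unadjusted p = 1.13e-04). It was called in each of 15 fits that left out a library and in each of 10 other alternatives. This transcript was already known to differ from earlier results of these same data. Its lack of overlap, the comparison with 0.154% and its p-values therefore describe the difference and are no independent evidence of it.

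The coding transcript of Eif1 showed no such difference. It ranged from 464.8 to 635.7 with a median of 570.9 normalized counts in Sham, and from 498.5 to 645.0 with a median of 551.4 in HF-HI. The groups overlapped almost fully, and the means of 563 ± 55.1 and 565 ± 52.3 gave a VSD difference of 0.0025 with a 95% interval of −0.0524 to 0.0574 (limma adjusted p = 0.987).

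The share of Eif1 counts held by the processed transcript was 17.8% to 36.4% across Sham libraries and 35.5% to 46.2% across HF-HI libraries. In 7 of 8 HF-HI libraries the share exceeded that of every Sham library, and the exception, HF-HI replicate 5, lay just below the highest Sham library. The mean share was 29.2% ± 6.36 in Sham and 41.6% ± 3.70 in HF-HI, a difference of 12.49 percentage points (exact two-sided permutation test, p = 4.66e-04). This share is built from the transcript that was already known to differ and is no independent evidence of the difference. Per kilobase the processed transcript stood at 619.9 normalized counts for Sham and 1054 for HF-HI, above the coding transcript at 425.7 and 427.6. These values were divided by annotated length, 383 and 1322 bases, without correction for fragment length. They therefore do not settle which transcript is more abundant.

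**Figure D2:**
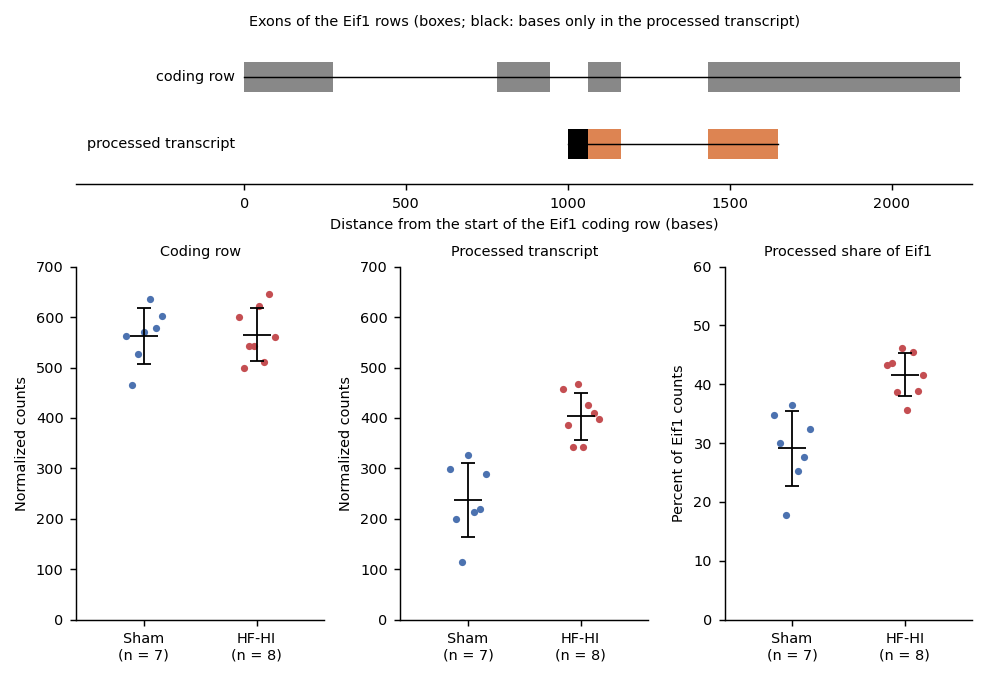
Upper part: exons of the Eif1 transcripts by distance from the start of the coding transcript in bases, with the 64 bases found only in the processed transcript in black. Lower part: normalized counts of each transcript, and the percentage of Eif1 counts held by the processed transcript, per library (points) with mean ± SD (bars), for 7 Sham and 8 HF-HI libraries, in which the coding transcript lies between 464.8 and 645.0 in both groups while the processed transcript separates them.

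Estimated counts of transcripts that share sequence depend on how reads are divided between them, and Eif1 has many copies in the genome. Of the 334 windows of 50 bases along the processed transcript, 62.6% also occur in transcripts of another gene, 13 genes in all, of which 12 are annotated as pseudogenes and the other is Emd. For the coding transcript 31.6% of windows were shared. None of the 15 windows that lie wholly in the 64 capital bases occurs in another gene. How much the division of reads contributed to the Eif1 difference was not tested, since only counts per transcript were used here.

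The 5 transcripts whose VSD followed the Eif1 processed transcript most closely across the 15 libraries were a retained-intron transcript of Chka (Pearson r = 0.924), and coding transcripts of Dusp5 (0.883), Hif1an (0.870), Slc9a9 (0.861) and Arhgef3 (0.853). These correlations describe likeness, carry no test, and rest partly on the same group difference, because in each of the 5 all 8 HF-HI libraries were above the Sham median. Chka encodes choline kinase and Dusp5 a nuclear phosphatase of ERK.

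The other start-site factors are Eif1b, a paralog of Eif1, Eif1a, which works beside it in scanning, Eif5, which activates GTP hydrolysis by eIF2, Eif5b, which joins the subunits, and Eif1ad, named for a domain shared with eIF1A. Eif5 was lower in HF-HI. Its main transcript (ENSMUST00000166123, chromosome 12, plus strand, coding) had a lowest value of 1098, a median of 1308 and a highest of 1522 normalized counts among Sham libraries, against 1083, 1134 and 1194 among HF-HI libraries. Every one of the 8 HF-HI libraries was below the Sham median and 3 of them below every Sham library. The means were 1314 ± 137 and 1135 ± 48.2, a log2 ratio of −0.21 and a VSD difference of −0.10 (SE 0.029, limma adjusted p = 0.345). With the log2 size factor as a covariate the unadjusted limma p was 0.0563 and the call was lost, while it held in all 15 fits without a library.

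The second Eif5 transcript, ENSMUST00000050993, spanned 2.80 to 206.7 normalized counts across Sham libraries and 76.2 to 273.6 across HF-HI libraries and was not called. With both summed, Eif5 had 1305 to 1573 across Sham (median 1483) and 1187 to 1366 across HF-HI libraries (median 1296). The gene sum differed by −0.17 on the log2 scale (SE 0.039, limma unadjusted p = 3.86e-04, adjusted p = 0.163 over 7740 genes). It was the smallest p of any of the 48 gene sums, and it was called under every alternative run. Eif1b, coding for a near copy of eIF1, had 424.2 to 531.2 normalized counts across Sham and 449.6 to 573.1 across HF-HI libraries, with 7 of 8 HF-HI libraries above the Sham median and an adjusted p of 0.598 in limma. Eif1a, Eif1ad and Eif5b were not called.

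For eIF2, Eif2s1 (the alpha subunit that the stress kinases phosphorylate) spanned 299.7 to 359.4 normalized counts across Sham libraries (median 333.9) and 257.0 to 361.6 across HF-HI libraries (median 311.3). In HF-HI 7 of 8 libraries were below the Sham median, and the VSD difference was −0.03 (95% interval −0.0756 to 0.009, limma adjusted p = 0.656). Without HF-HI replicate 2 the unadjusted limma p was 0.0309, but Eif2s1 stayed uncalled in 14 of 15 fits without a library. Over all alternatives its unadjusted p ran from 0.0309 to 0.277. Eif2s2, the beta subunit, had medians of 380.8 and 361.2. Eif2a, a separate initiator tRNA carrier, varied most of the 3, from 104.6 to 269.1 over both groups. Eif2b5, the catalytic subunit of the exchange factor that recharges eIF2, had 330 ± 20.2 and 344 ± 44.6.

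Of the eIF2 alpha kinases, Eif2ak1 (HRI, the heme-regulated kinase) and Eif2ak3 (PERK, the kinase of the endoplasmic reticulum) were listed. Eif2ak3 had 269 ± 21.7 and 262 ± 23.1, with almost full overlap of the groups (VSD difference −0.0090, 95% interval −0.0466 to 0.0286). Eif2ak1 had 379 ± 15.8 in Sham and 361 ± 22.1 in HF-HI. Of the 6 transcripts of eIF2, eIF2B and the eIF2 alpha kinases 0 were called, a count from which nothing can be read against a background of 8.83%.

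The eIF3 complex, the largest initiation factor, was listed with 13 genes and a single transcript each. Their log2 ratios lay between −0.123 and 0.035, the narrowest range of any role with more than 3 transcripts. The other such roles hold genes with several transcripts, whose single transcripts varied more between libraries. How far this bears on the ranges was not tested. In the eEF1 group the lowest and highest log2 ratios, −0.258 for Eef1e1 and 0.111 for Eef1d, belonged to genes with a single transcript. The coefficient of variation within groups (SD in percent of the mean) ran from 3.77% for Eif3c to 10.1% for Eif3b. Its median was 7.82% over all 38 transcripts that stood alone for their gene. Eif3m, the subunit with the least spread in Sham, had 413.3 to 431.2 normalized counts in Sham and 400.3 to 462.3 in HF-HI. Eif3a, the scaffold on which the complex assembles, had 1098 ± 39.1 as the Sham mean and 1088 ± 65.0 as the HF-HI mean, a VSD difference of −0.0069 (95% interval −0.0473 to 0.0335).

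Eif3l was the only subunit called (7.69% of 13, against 8.83% of all transcripts). It spanned 372.7 to 416.9 across Sham libraries (median 396.1) and 309.3 to 409.4 across HF-HI libraries (median 363.9). In HF-HI 7 libraries were below the Sham median and 5 below every Sham library. The VSD difference was −0.04 (limma unadjusted p = 0.0484, adjusted p = 0.561). The call was lost in 9 of 15 fits that left out a library and in 6 of 10 other alternatives, with unadjusted p-values from 0.0154 to 0.129. Eif3h, with 579.0 to 643.7 in Sham and 545.8 to 624.7 in HF-HI, missed the threshold (limma unadjusted p = 0.0621, adjusted p = 0.590). It was called with library weights, quantile normalization and the size factor covariate, and without HF-HI replicate 2 or Sham replicate 1. In the remaining alternatives it was not called.

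The eIF4F group comprises the cap-binding proteins (Eif4e, Eif4e2, Eif4e3), the helicases (Eif4a1, Eif4a2), their helpers (Eif4b, Eif4h), the scaffolds (Eif4g1, Eif4g2, Eif4g3) and Eif4a3, a helicase of the same family that serves in the exon junction complex. Of their 23 transcripts 2 were called, 1 in each direction (8.70%, against 8.83% of all transcripts). Eif4e, the cap-binding protein whose availability limits initiation, spanned 889.1 to 1111 normalized counts across Sham libraries and 799.0 to 998.9 across HF-HI libraries, with medians of 957.5 and 928.8 (VSD difference −0.04, 95% interval −0.0972 to 0.0124). Eif4enif1, which binds and represses eIF4E, had 133 ± 20.3 and 133 ± 21.9.

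Eif4a3 had 276.4 to 361.5 across Sham (median 344.8) and 264.2 to 308.9 across HF-HI libraries (median 303.8). All 8 HF-HI libraries were below the Sham median, but 2 Sham libraries lay within the HF-HI range. The VSD difference was −0.04 (limma unadjusted p = 0.0469, adjusted p = 0.561). The call was lost in 10 of 15 fits that left out a library and in 3 of 10 other alternatives, with unadjusted p-values from 0.0079 to 0.140. Eif4a2, a paralog of Eif4a1 that is abundant in brain, had 3852 to 4274 across Sham and 3661 to 4619 across HF-HI libraries in its main transcript, and was not called (VSD difference −0.03, 95% interval −0.0991 to 0.0446).

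Eif4g2 encodes DAP5, a scaffold that lacks the site for eIF4E and serves cap-independent initiation. Its processed transcript ENSMUST00000161790 was called higher. The transcript lies on chromosome 7 in the minus strand, is 522 bases long in 4 exons and begins with an exon of 261 bases that no other annotated Eif4g2 transcript holds. That exon overlaps, in its first 150 bases and on the same strand, the small nucleolar RNA gene Gm23262 (chr7:111076060-111076227). The exon is shown because reads of the snoRNA and of the transcript share it, with the overlapping bases in capitals, as it reads in the minus strand of chr7:111075949-111076209 in GRCm38.

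Eif4g2 processed transcript, first exon: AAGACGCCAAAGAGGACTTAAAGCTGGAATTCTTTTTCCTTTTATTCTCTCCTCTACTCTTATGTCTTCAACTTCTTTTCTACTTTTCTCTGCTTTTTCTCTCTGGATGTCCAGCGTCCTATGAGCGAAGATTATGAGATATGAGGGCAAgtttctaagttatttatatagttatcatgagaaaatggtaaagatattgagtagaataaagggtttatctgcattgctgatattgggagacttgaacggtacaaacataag

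This Eif4g2 transcript had a lowest value of 71.0, a median of 91.8 and a highest of 190.9 normalized counts among Sham libraries, against 104.7, 172.4 and 219.7 among HF-HI libraries. All 8 HF-HI libraries exceeded the Sham median, while Sham replicate 5, with 190.9, lay above all but 1 of them. The means were 105 ± 41.2 and 166 ± 33.6, a log2 ratio of 0.66 and a VSD difference of 0.13 (SE 0.0373, limma adjusted p = 0.351). The call held under all alternatives run, and without Sham replicate 5 the VSD difference was 0.16. The snoRNA Gm23262 itself was listed, with 70.6 to 161.4 normalized counts in Sham and 41.9 to 177.0 in HF-HI, and was not called (log2 ratio −0.10, limma adjusted p = 0.914). Its length is 168 bases, and how reads in the shared bases were divided was not tested.

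The main coding transcript of Eif4g2, ENSMUST00000162415, spanned 2818 to 4191 across Sham libraries and 2737 to 3755 across HF-HI libraries, with means of 3276 ± 436 and 3261 ± 309. In Sham replicate 5 it was at its highest, 4191, while the third Eif4g2 transcript, ENSMUST00000161051, was at its lowest, 124.5 normalized counts. The processed transcript made up 2.59% ± 0.817 of Eif4g2 counts in Sham and 4.06% ± 0.732 in HF-HI (limma on the log2 share, adjusted p = 0.414 over 4140 transcripts). The sum over all 3 Eif4g2 transcripts differed by 0.02 on the log2 scale (SE 0.040). Over the 10 genes with several transcripts, the share within the gene was called for 3 of 28 transcripts, against 6.28% of all such transcripts. Higher were the processed transcripts of Eif1 and Eif4g2 (background 3.5%), and lower was the coding Eif1 transcript (background 2.78%), whose share is the complement of the other. Both Eif1 shares are built from the transcript already known to differ. Their calls and their part in the count of 3 are therefore no independent evidence. None passed an adjusted p under 0.1.

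Both called-higher translation factors were processed transcripts without a coding sequence. Among all 137 listed processed transcripts of protein-coding genes, 10.2% were called higher and 5.11% lower, against 4.94% and 3.9% of all transcripts, a difference that was not tested. The processed transcript of Eef1a1 was not called, with 303 ± 76.9 and 280 ± 116.

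**Figure D3:**
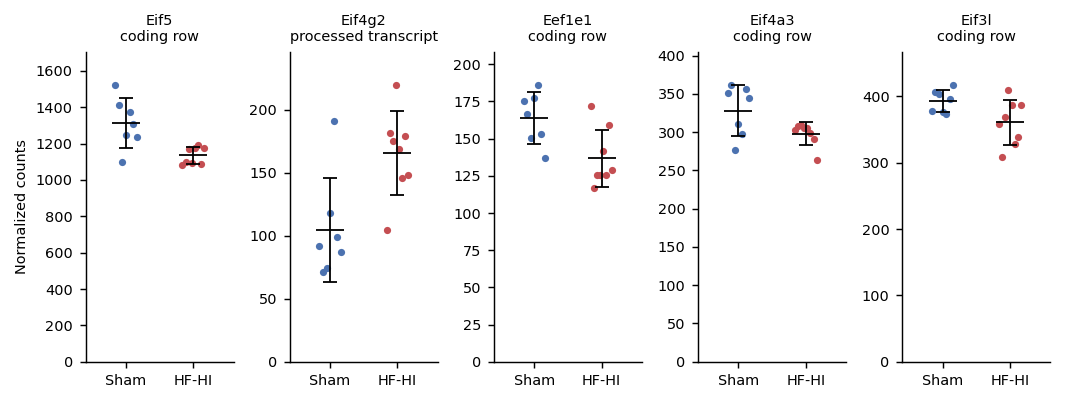
Normalized counts per library (points) with mean ± SD (bars) of the 5 called transcripts other than that of Eif1, in 7 Sham and 8 HF-HI libraries, each panel on its own axis from 0. In the Eif4g2 panel 2 Sham libraries, at 118.1 and 190.9, lie within the range of the HF-HI points, and in the Eif5 panel the HF-HI points, 1083 to 1194, are packed more closely than the Sham points.

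Among the factors that act after scanning, Eif5a, whose hypusine-bearing protein relieves stalled ribosomes, had 475.1 to 657.4 across Sham and 422.9 to 660.1 across HF-HI libraries in its main transcript, ENSMUST00000108613. In HF-HI 6 of 8 libraries were below the Sham median (limma unadjusted p = 0.0911, adjusted p = 0.619). The unadjusted limma p was 0.0194 without HF-HI replicate 2, 0.0379 without HF-HI replicate 8 and 0.0418 without Sham replicate 7. This transcript stayed uncalled in 12 of 15 fits without a library. Over all alternatives its unadjusted p ran from 0.0118 to 0.184. Eif6, which keeps the large subunit from joining too early, had 156.6 to 194.6 and 160.7 to 207.0, with a VSD difference of 0.0019 (95% interval −0.0348 to 0.0386). Eif5a2, the paralog of Eif5a, had 856 ± 46.9 and 822 ± 46.9.

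In elongation the abundant factors differed little. Eef2, the translocase, had 6589 to 6959 normalized counts across Sham (median 6765) and 6479 to 7185 across HF-HI libraries (median 7007). In HF-HI 7 of 8 libraries were above the Sham median and 6 above every Sham library, while HF-HI replicate 8 had the lowest value of all, 6479. The VSD difference was 0.03 (95% interval −0.0122 to 0.0722, limma adjusted p = 0.694). Without HF-HI replicate 8 the unadjusted limma p was 0.0233, but Eef2 stayed uncalled in 14 of 15 fits without a library. Over all alternatives its unadjusted p ran from 0.0233 to 0.624.

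Eef2k, the kinase that inhibits eEF2, had 181.1 to 281.0 across Sham and 173.4 to 273.6 across HF-HI libraries (VSD difference −0.03, 95% interval −0.0887 to 0.0369). Eef1a1, the general form of eEF1A, spanned 9795 to 11322 across Sham libraries (median 11051) and 9095 to 11218 across HF-HI libraries (median 10202). In HF-HI 6 of 8 libraries were below the Sham median, and the VSD difference was −0.07 (95% interval −0.1572 to 0.02, limma adjusted p = 0.661). Without Sham replicate 5 the unadjusted limma p was 0.0466, but Eef1a1 stayed uncalled in 14 of 15 fits without a library. Over all alternatives its unadjusted p ran from 0.0466 to 0.583.

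Eef1a2, the form that replaces eEF1A1 in mature neurons and muscle, had 5449 to 5855 across Sham and 5298 to 6284 across HF-HI libraries (VSD difference 0.0087, 95% interval −0.0539 to 0.0713). Per kilobase the log2 ratio of Eef1a2 to Eef1a1 was −1.16 ± 0.109 in Sham and −1.07 ± 0.183 in HF-HI. The difference of 0.0904 was within the spread of the libraries (exact two-sided permutation p = 0.279). It stayed between 0.0451 and 0.1234 when each library was left out, an alternative chosen after seeing the data.

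Of the exchange factor of eEF1A, Eef1b2 had 284 ± 47.2 and 275 ± 34.0 in its coding transcript and Eef1g had medians of 1418 and 1447. Eef1e1, which is named for eEF1 but is known as a part of the multi-synthetase complex, was called lower. Its values had a lowest of 136.8, a median of 166.9 and a highest of 186.0 in Sham, and 116.9, 127.3 and 171.7 in HF-HI. In HF-HI 7 libraries were below the Sham median and 5 below every Sham library. The means were 164 ± 17.5 and 137 ± 19.2, a log2 ratio of −0.26 and a VSD difference of −0.05 (SE 0.0196, limma adjusted p = 0.476). The call was lost with the log2 size factor as a covariate (limma unadjusted p = 0.105), and its unadjusted p over all alternatives lay between 0.00458 and 0.105.

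Levels compared per kilobase of transcript, summed over the transcripts of a gene, put the elongation factors and a helicase on top. Eef1a1 led with 6628 ± 386 normalized counts per kilobase for Sham and 6264 ± 403 for HF-HI, followed by Eif4a2 (3736 ± 131 and 3653 ± 215), Eef1a2 (2700 ± 73.0 and 2725 ± 174) and Eef2 (2200 ± 46.6 and 2258 ± 70.0). Each of these 4 was above the next in all 15 libraries. Eif1 came next, with 1046 ± 210 in Sham and 1482 ± 126 in HF-HI, the greater part of it from the short processed transcript, and exceeded Eif4h, the gene after it, in 13 of 15 libraries. Division was by annotated length without correction for fragment length, so places in this order that rest on short transcripts are uncertain.

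Further down the order neighbours exchanged places between libraries. Eif4h exceeded Eif4g2 in 8 of 15 libraries, and Eef1g exceeded Eif5a in 7. The eIF3 subunits ran from Eif3k, with 521 and 530 per kilobase, to Eif3j1, with 81.3 and 78.8. The lowest were Eif4enif1, with 36.7 and 36.8, and Eef2k, with 35.1 and 32.5. Reads of Eif4a1, Eef1g and Eef1a1 could be divided with other genes along much of their length, since 65.3%, 64.3% and 59.2% of the 50-base windows of their main transcripts occur in other genes, whereas Eef1a2 shares none. In all, 23 of the 66 transcripts shared no window with another gene and 5 shared over 50%.

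**Figure D4:**
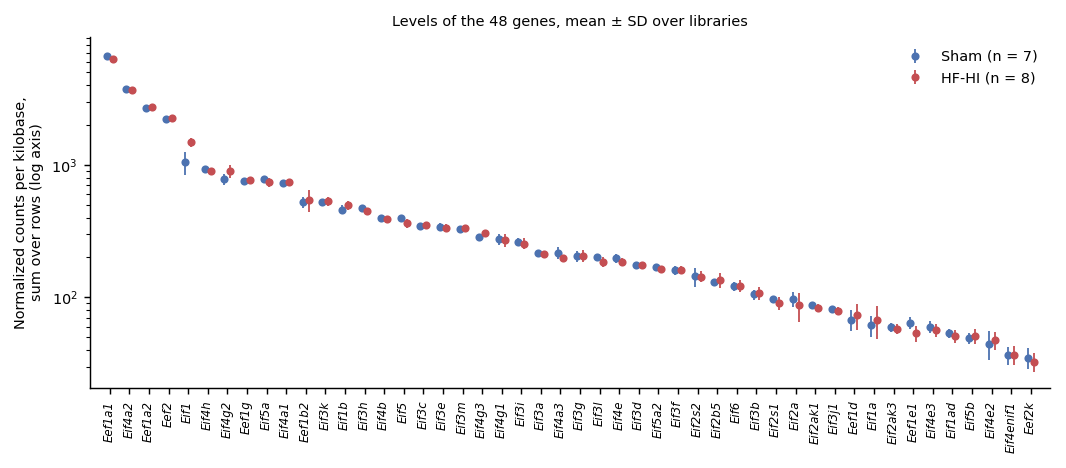
Normalized counts per kilobase of the 48 genes, summed over listed transcripts, on a log axis, as mean ± SD of 7 Sham (blue) and 8 HF-HI (red) libraries, from Eef1a1 at 6628 in Sham to Eef2k at 35.1. The groups lie close together along the whole order, and Eif1 is the gene with the widest distance between them.

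In genes with several transcripts, the single transcripts varied far more between libraries than the gene did. The coefficient of variation within groups had a median of 24.1% over the 28 such transcripts and of 7.82% over the 38 transcripts that stood alone for their gene. The sums of the 10 genes varied by 4.19% to 11.1%, with a median of 6.13%, and in 8 of 10 genes the sum varied less than every one of its transcripts. Eif1 and Eif4a1 were the exceptions.

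Eif4g3 shows the pattern. Its transcript ENSMUST00000084214 spanned 438.8 to 1202 normalized counts across Sham libraries and 928.2 to 1667 across HF-HI libraries, and ENSMUST00000105831 from 520.3 to 1245 and from 56.7 to 984.5, neither of them called. In Sham replicate 1 the first was at its lowest, 438.8, and the second at its highest, 1245, and in HF-HI replicate 5 the first was at its highest, 1667, and the second at its lowest, 56.7. Of their bases, only 54 and 21 are found in no other listed Eif4g3 transcript. Their sum with the third transcript had only 1712 to 1920 in Sham and 1822 to 2199 in HF-HI, a log2 difference of 0.085 (SE 0.038, limma unadjusted p = 0.0376, adjusted p = 0.493), a call lost in 8 of 15 fits that left out a library.

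Eif5a transcript ENSMUST00000108612 ran from 2.45 to 404.5 over the 15 libraries, a coefficient of variation of 85.5%, while the Eif5a sum varied by 6.30%. The 5 transcripts of Eif4g1 have between 0 and 212 bases of their own, and varied by 20.8% to 46.0% against 10.4% for the sum. Over gene sums, 6 of the 48 genes were called, against 9.43% of 7740 genes. Eif1 and Eif4g3 were higher (background 5.19%) and Eif5, Eef1e1, Eif4a3 and Eif3l lower (background 4.24%). None passed an adjusted p under 0.1, which 0.0129% of all genes did. The Eif1 gene sum, 639.6 to 898.1 in Sham and 884.7 to 1059 in HF-HI, differed by 0.26 on the log2 scale (limma unadjusted p = 0.00196, adjusted p = 0.267). With protein-coding transcripts only, the unadjusted limma p of Eif1 was 0.960. The full sum holds the processed transcript already known to differ. The Eif1 call and its part in the count of 6 are therefore no independent evidence.

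**Figure D5:**
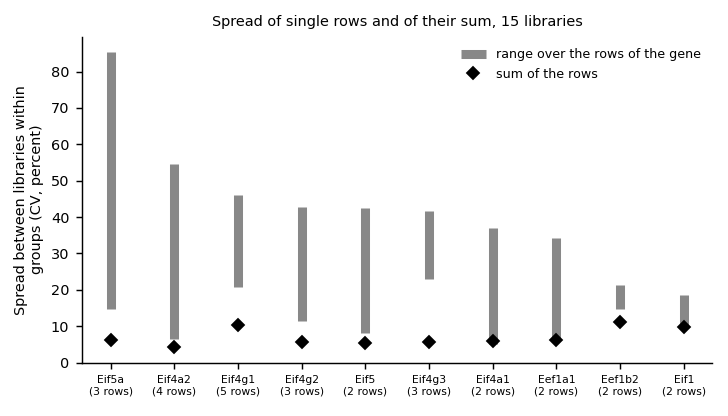
Coefficient of variation between libraries within groups, in percent, for the 10 genes with several listed transcripts: grey bars span the lowest to the highest transcript of a gene and diamonds mark the sum of its transcripts. The sums lie between 4.19% and 11.1%, while transcripts reach 85.5% in Eif5a.

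Genes that work with the translation factors were read from a list of 72 genes, of which 53 were listed with 72 transcripts. They hold cap and poly(A) binding proteins, kinases upstream of initiation, genes of the integrated stress response, and proteins of subunit joining, release, recycling and modification. Of the 72 transcripts 3 were called higher and 1 lower (5.56%, against 8.83% of all), with adjusted p-values in limma between 0.450 and 0.555. Higher were Cpeb1, which controls poly(A) tails at synapses (253 ± 23.9 and 311 ± 65.8 normalized counts), Mknk2, a kinase of eIF4E (176 ± 14.9 and 203 ± 19.5), and Bzw2, a mimic of eIF5 (191 ± 10.2 and 213 ± 13.5). For Cpeb1, 7 HF-HI libraries lay above every Sham library and 1, at 182.5, lay below every Sham library. Lower was Abce1, which splits ribosomes after termination (786 ± 23.5 and 740 ± 26.7). Alternative fits are not reported here for these partner calls. Of the 6 transcripts of the integrated stress response 0 were called, which at a background of 8.83% says nothing about the list.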

How the data were processed

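Cortical total RNA of 15 mice was sequenced. Per the study's methods, the authors aligned reads to mm10 with STAR, quantified Ensembl transcripts by eXpress and normalized the counts with DESeq2, where low-count outliers were removed by Cook's distance. The annotation release was not given in the sources used here. The deposited values are variance-stabilized values on a log2 scale. They were inverted to normalized counts and whole reads: a count of 0 has a VSD of 9.81, and 100.0% of values were whole within 0.1 reads. The reads named here are counts estimated per transcript by eXpress. How shared reads were divided cannot be told from them. A read was worth 0.679 to 2.00 normalized counts, which sets the smallest step between values, and SDs are over libraries. The lowest transcript mean was 107.9, so rarer transcripts were not analysed here. On this scale, 100 normalized counts doubled give a VSD step of 0.20.

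Because the unit is not a raw count, the main test was limma 3.58.1 (R 4.3.3; lmFit, eBayes with trend, two-sided, group as the only term), with Benjamini-Hochberg adjustment at the study's 0.1. Gene sums were tested with voom on recovered reads, and shares within a gene on log2((count + 1)/(sum + 1)). The code was tested on simulated data. P-values weigh a group difference against the spread between libraries, and the replicate numbers did not pair libraries across groups.

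Names, exons and sequence came from GENCODE M21 (GRCm38), with 10241 transcripts matched and 129 not. Of the autosomal names that fit the rule, 17 protein-coding genes, among them Eif4ebp1, Eif4ebp2, Eif2b1 and Eif2ak4, were not analysed here. The members and all lists were chosen with earlier results of these data known. Named were both Eif1 transcripts, every called member, called partner genes, and the main transcript of 15 anchor genes (14 listed). Values given for further members serve to describe their role.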

Additional observations from a re-analysis of the deposited data

Results flagged for a closer look

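Dixon's test for a library apart from the rest of its group was run on 44 groups of values (20 named transcripts, the Eif1 share and the ratio of Eef1a2 to Eef1a1, in Sham and in HF-HI), and 5 were flagged, where chance flags about 1 in 20 groups. Sham replicate 5 was the highest Sham library of the Eif4g2 processed transcript, with 191 normalized counts against 118 in the next, and of the main coding transcript of Eif4g2, with 4191 against 3355. HF-HI replicate 8 was the lowest HF-HI library of Eif4a3, with 264 against 291, and of Eef2, with 6479 against 6958. HF-HI replicate 2 was the highest HF-HI library of the main Eif4a2 transcript, with 4619 against 4094. The cause of these values was not tested.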

How the results depend on the processing

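Of the 66 transcripts 6 were called, 4 to 8 when a library was left out, and 2 in a refit of transcripts with a mean of 300 or more normalized counts, which keeps 39 members. That filter removed Eef1e1 and the Eif4g2 processed transcript, while Eif3l and Eif4a3 stayed in with p-values of 0.0517 and 0.0514. Over all transcripts the count of 916 became 525 under that filter, 533 with the log2 size factor as a covariate, and 748 to 987 without a library. Of the gene sums 6 members were called, 3 with the size factor covariate and 3 to 9 without a library (3 without Sham replicate 7), and over all genes 730, 474 with that covariate and 609 to 808 without a library. The count of shares within a gene was 3 to 4 without a library, and without Sham replicate 5 1 member share passed an adjusted p under 0.1, against 0 in the full fit.

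The replicate numbers did not pair the libraries, with correlations of deviations between −0.138 and 0.09. With the replicate block 6 transcripts, 5 gene sums and 3 shares were called, and 891, 695 and 277 over all. Of the 6 transcripts 3 were among those called without it: Eef1e1 (limma unadjusted p = 0.0518), Eif3l (0.0891) and Eif4a3 (0.140) were lost, and transcripts of Eif5a (0.0118), Eif4g1 and Eif4g3 were gained. The size factor covariate left 4 transcripts called, 2 of them shared, with Eef1e1 (0.105), Eif3l (0.129), Eif4a3 (0.129) and Eif5 (0.0563) lost.

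The Eif1 processed transcript, that of Eif4g2 and the Eif5 gene sum were called under each alternative that held them. The Eif1 share differed by 10.59 to 13.7 percentage points without a library. Among transcripts that were not called, the sign of the VSD difference turned for Eif3a (0.0120) and Eef1a2 (−0.0036) with the size factor covariate, for the main Eif4g2 transcript with it (0.0373) and with library weights (0.0146), for Eif6 with quantile normalization (−0.0002), and for Eef1b2 with voom (0.0131). With a library left out, the difference ran from −0.0172 to 0.0008 for Eif3a, −0.0081 to 0.0195 for Eef1a2, −0.0258 to 0.0409 for the main Eif4g2 transcript, −0.0057 to 0.0075 for Eif6, −0.0249 to 0.0064 for Eef1b2 and −0.0135 to 0.0138 for the coding Eif1 transcript. The causes were not tested. Counting error is largest for Eif5a ENSMUST00000108612 and Eif5 ENSMUST00000050993, with as few as 2 and 4 reads in a library.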
